A study of Arabidopsis thaliana and Zea mays with 822 samples.

Results

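The libraries described here came from mesophyll protoplasts of Arabidopsis thaliana that received a plasmid for 1 of 3 forms of the nuclease CasΦ together with 1 of 6 guide RNAs. They were chosen by the experiment named in the sample titles and comprise 42 of the 822 libraries of the series, 36 from edited protoplasts and 6 from controls. The 36 edited libraries are 2 for each of the 18 combinations of guide and enzyme, and each guide has 1 control. Protoplasts of Col-0 (wild type) were used for AtPDS3 gRNA8 and gRNA10, and protoplasts of fwa-4 were used for FWA gRNA1, gRNA4, gRNA5 and gRNA6. The plants were 3-4 weeks old, and the same guide was always tested in the same background. The enzymes were wild-type CasΦ-2 (WTCasPhi in the titles, WTCasΦ here), vCasΦ and nCasΦ, each codon-optimised for Arabidopsis, driven by the UBQ10 promoter and carrying a nuclear localisation signal at its C terminus only, with the guide transcribed from the U6 promoter of the same plasmid. Controls received a green fluorescent protein plasmid. Protoplasts were incubated for 48 h at room temperature, so all values describe a transient, mixed population in which the share of cells that took up a plasmid was not measured here.

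CasΦ is a compact nuclease encoded by huge bacteriophages. It uses a single RuvC active site to process its guide and to cut both DNA strands, and it recognises a short T-rich protospacer adjacent motif (PAM) at the 5′ side of the target. The cuts lie far from the PAM and are staggered with 5′ overhangs, and repair of such ends in plant cells leaves mostly deletions at the PAM-distal end of the target. vCasΦ and nCasΦ are altered at the negatively charged tip of a helix that lies over the active site: in vCasΦ the tip is replaced by a short flexible linker, and in nCasΦ several residues of the tip are changed to alanine. AtPDS3 encodes phytoene desaturase, an enzyme of carotenoid synthesis whose loss turns tissue white. FWA encodes a homeodomain transcription factor that delays flowering when expressed outside the endosperm, and in fwa-4 its promoter has lost DNA methylation in a heritable way.

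All target sites lie on chromosome 4. In the coordinates of the RefSeq assembly TAIR10.1, the target of AtPDS3 gRNA8 is chr4:8192775-8192794 and that of gRNA10 is chr4:8194265-8194284, both read here on the plus strand with AtPDS3 (AT4G14210) on the minus strand. The gRNA8 target lies inside the coding exon at 8192651 to 8192799, and the gRNA10 target inside the coding exon at 8194197 to 8194285, which ends 1 base beyond the target. The FWA guides target the sequence before the annotated start of FWA (AT4G25530, plus strand, from 13038360). gRNA1 targets chr4:13038338-13038357 on the plus strand, gRNA4 targets chr4:13038217-13038236 on the plus strand, and gRNA5 and gRNA6 target chr4:13038214-13038233 and chr4:13038208-13038227 on the minus strand. The 20 bases matched by gRNA1 occur at 2 places on chromosome 4, and those of each other guide at 1. The other place matched by gRNA1 was not examined here. The targets of gRNA4, gRNA5 and gRNA6 overlap, so these guides report on the same stretch of DNA and are not independent sites.

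The most frequent deletion at each site, by mean share over the 6 edited libraries of the guide, shows where the cuts were repaired. Each line holds 30 bases, 5′ to 3′ on the strand of the target: the PAM of 3 bases, the 20 bases matched by the guide and 7 bases beyond it, with the deleted bases in capitals.
gRNA8, 9-bp deletion: tcgttgttccgcaaaataGCCCAAATAcct
gRNA10, 9-bp deletion: ttgcagttgacaatccAGCCAATCCtgcaa
gRNA1, 10-bp deletion: ttatcccattcaacatTCATACGAGCgccg
gRNA4, 7-bp deletion: ttatggttctatactAATATCAaagagtta
gRNA5, 5-bp deletion: ttgatattagtatagaaccaTAACAaaaga
gRNA6, 9-bp deletion: ttagtatagaaccataaCAAAAGAAAaaaa
As written here, every one of these deletions removes bases at the PAM-distal end of the target. At every guide but gRNA4 it then runs past the last base matched by the guide. This contrast depends on notation. Written at the other end of its repeat, the deletion would end within the target at gRNA8, gRNA10 and gRNA5 and past it at gRNA4. Positions below count from the PAM, so base 1 is next to the PAM, base 20 is the last base of the target and higher numbers lie beyond it. In gRNA8 the deletion is flanked by a repeat of 5 bases (aaata) and in gRNA10 by a repeat of 6 bases (caatcc), so 1 copy of the repeat is lost with the bases between. A deletion inside a repeat can be written at more than 1 position, which held for 38.0% of the deletion reads at gRNA1 to 93.6% at gRNA6. The deposited tables wrote such deletions away from the PAM for gRNA8, gRNA10, gRNA5 and gRNA6 and toward the PAM for gRNA1 and gRNA4, in the same way for all enzymes, so the position of a site's deletions can be compared between enzymes but not between guides.

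The edited libraries held 1806626 to 4712540 reads and the controls 2205082 to 3775356. A read counted as edited when it had gained or lost at least 3 bp in a pattern seen in 100 or more reads of that library, the criterion of the study. By this criterion 5 of the 6 controls had 0 edited reads, a count that leaves out every pattern under 100 reads. These 5 controls still held reads in the patterns that passed in the edited libraries of their guide, at 0.000998 to 0.00543% of reads. The gRNA10 control had 635 reads (0.0168%) of a single 7-bp deletion of bases 16 to 22, a pattern that made up 0.005 to 3.75% of edited reads in the gRNA10 edited libraries. Deletions or insertions of 1 to 2 bp, which the criterion leaves out, made up 18.1% of reads in the gRNA6 control and 17.7 to 19.1% in its edited libraries, whose site lies in runs of adenine. The reads were amplified in 2 rounds without molecular identifiers, so all shares are shares of reads and a read is not a molecule. The sources do not say whether the 2 libraries of a combination came from separate protoplast preparations, so all p-values measure the spread between these libraries.

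Both variants edited more than WTCasΦ at every site, by an amount that depended on the site. The lowest gain of vCasΦ was at gRNA6, where it edited 0.675 and 2.39% of reads against 0.147 and 0.207% with WTCasΦ. The highest was at gRNA5, with 8.57 and 9.57% against 0.206 and 0.256%. At gRNA8, nCasΦ edited 0.992 and 0.950% of reads and vCasΦ 5.11 and 3.73%, the largest ratio between the variants at 4.50-fold. In percent of reads they were farther apart at gRNA10, with 4.27 and 4.85% for nCasΦ and 12.8 and 11.8% for vCasΦ. At gRNA1, by contrast, their libraries overlapped, with 4.88 and 6.83% for nCasΦ and 5.44 and 6.81% for vCasΦ. The libraries of the variants overlapped at gRNA6 as well, where nCasΦ edited 1.12 and 2.16%.

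**Figure D1:**
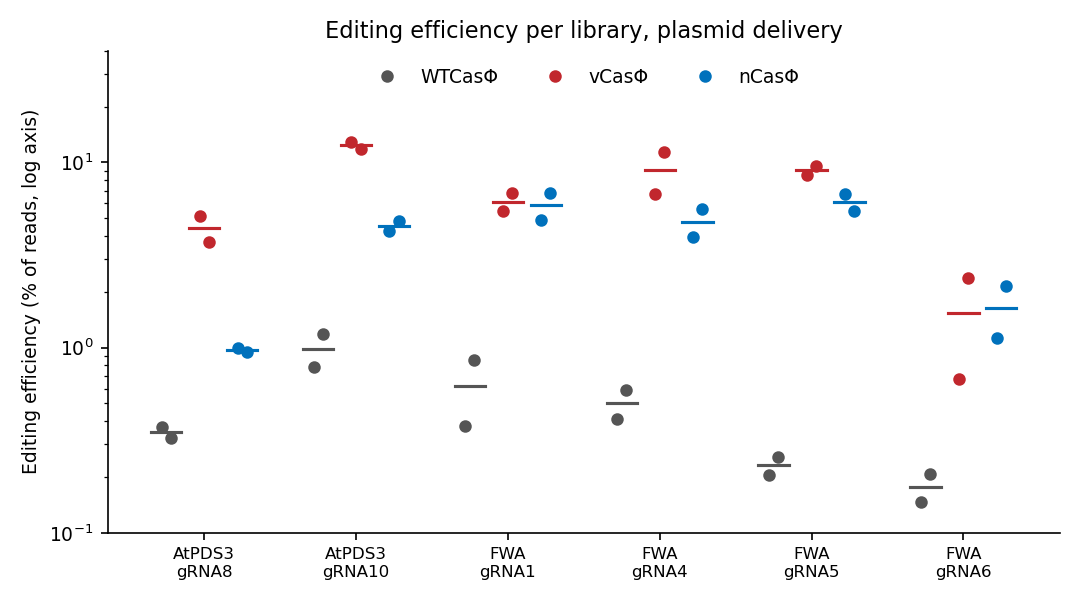
Editing efficiency, in percent of reads on a log axis, for each guide and enzyme. Dots are libraries and horizontal lines are means of 2 libraries. At every guide both variants lie above WTCasΦ, and vCasΦ lies above nCasΦ without overlap at gRNA8, gRNA10, gRNA4 and gRNA5.

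On the log2 scale the gain over WTCasΦ averaged 3.84 ± 0.34 (SE over 6 guides) for vCasΦ, a 14.4-fold difference, and 3.03 ± 0.45 for nCasΦ, an 8.19-fold difference. Each had p = 4.29e-05 in a two-sided exact permutation test that exchanged enzyme labels within guides, the smallest p that this design can give, and an adjusted p of 0.000257 over the 18 tests of 6 measures and 3 pairs of enzymes. vCasΦ exceeded nCasΦ by 0.81 ± 0.37, or 1.75-fold, with a higher mean at 5 of 6 guides (exact permutation test, p = 0.0096, adjusted p = 0.0192). That difference rested on gRNA8 and gRNA10: without gRNA8 it was 0.54 (adjusted p = 0.103) and without gRNA10 it was 0.68 (adjusted p = 0.0962). It was 0.73 without the first nCasΦ library of gRNA6 (adjusted p = 0.0647) and 0.66 without the second vCasΦ library of gRNA6 (adjusted p = 0.0815). A single guide has only 2 libraries against 2, which no permutation test can place below the threshold of 0.05. Values within a guide are therefore given with whether they overlap and without a test. With so few libraries, lack of overlap is common when labels are exchanged at random. It does not by itself show a difference at a guide.

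The edited reads of all 3 enzymes were mostly single deletions. These deletions made up 97.4 to 100% of edited reads in every library, insertions were counted in 2 of 36 libraries at no more than 0.347%, and the median deletion measured 8 to 12 bp in all libraries. At gRNA8 and gRNA10 the most frequent size was 9 bp with all 3 enzymes, and at gRNA4 it was 8 bp with WTCasΦ and 7 bp with both variants. Elsewhere the modal size differed more: at gRNA1 it was 10, 8 and 10 bp with WTCasΦ, vCasΦ and nCasΦ, at gRNA5 5, 6 and 5 bp, and at gRNA6 9, 11 and 5 bp. Deletions of 8 to 10 bp took a median of 43.8% of edited reads over the 12 WTCasΦ libraries (24.2 to 64.9%), 39.9% with vCasΦ (18.3 to 58.1%) and 39.6% with nCasΦ (14.9 to 56.9%). Within guides the mean share was lower with vCasΦ than with WTCasΦ at 5 of 6 guides, 3 of them without overlap, with a mean difference of -7.99 percentage points, and lower with nCasΦ at 6 of 6 guides, 2 of them without overlap, with a mean difference of -7.33 points. These differences were not tested.

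The read-weighted mean start, end and size of deletions differed between variants and WTCasΦ in directions that changed with the site. At gRNA4, deletions started at base 10.4 and 10.7 with WTCasΦ, at 12.4 and 12.3 with vCasΦ and at 12.3 and 12.5 with nCasΦ. The variants thus started 1.80 and 1.85 bases farther from the PAM there, without overlap. At gRNA10 the order was turned for vCasΦ, with starts at 14.5 and 14.3 for WTCasΦ, 13.4 in both vCasΦ libraries and 14.3 and 14.2 for nCasΦ. Over the 6 guides the mean start moved by 0.31 ± 0.43 bases (SE over 6 guides) with vCasΦ (exact permutation test, p = 0.576) and by 0.82 ± 0.38 with nCasΦ (p = 0.119, adjusted p = 0.164 over the 18 tests). Neither passed the threshold of 0.05, and guide differences ran from -0.999 to 1.80 bases for vCasΦ and from -0.11 to 2.04 for nCasΦ.

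Where deletions ended differed little between the enzymes at gRNA8, with means of 23.5 and 24.6 for WTCasΦ, 24.0 and 24.1 for vCasΦ and 23.9 and 23.6 for nCasΦ. At gRNA6 both variants ended farther from the PAM, at 25.0 and 25.2 with vCasΦ and 23.5 and 25.5 with nCasΦ against 23.1 and 23.0 with WTCasΦ. Over the 6 guides the end moved by 0.41 ± 0.36 bases with vCasΦ and by 0.07 ± 0.29 with nCasΦ (exact permutation tests, p = 0.233 and p = 0.846). Mean sizes followed the same mixed course. At gRNA10, deletions averaged 9.23 and 9.33 bp with WTCasΦ and 10.8 bp in both vCasΦ libraries. At gRNA4 they averaged 11.0 and 12.1 bp with WTCasΦ but 8.97 and 9.67 bp with vCasΦ and 9.20 and 9.18 bp with nCasΦ. The mean difference in size from WTCasΦ was 0.10 ± 0.64 bp for vCasΦ and -0.76 ± 0.49 bp for nCasΦ (exact permutation tests, p = 0.905 and p = 0.348). The guide differences ran from -2.21 to 1.99 bp for vCasΦ and from -2.34 to 0.52 bp for nCasΦ, and no single guide was tested.

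**Figure D2:**
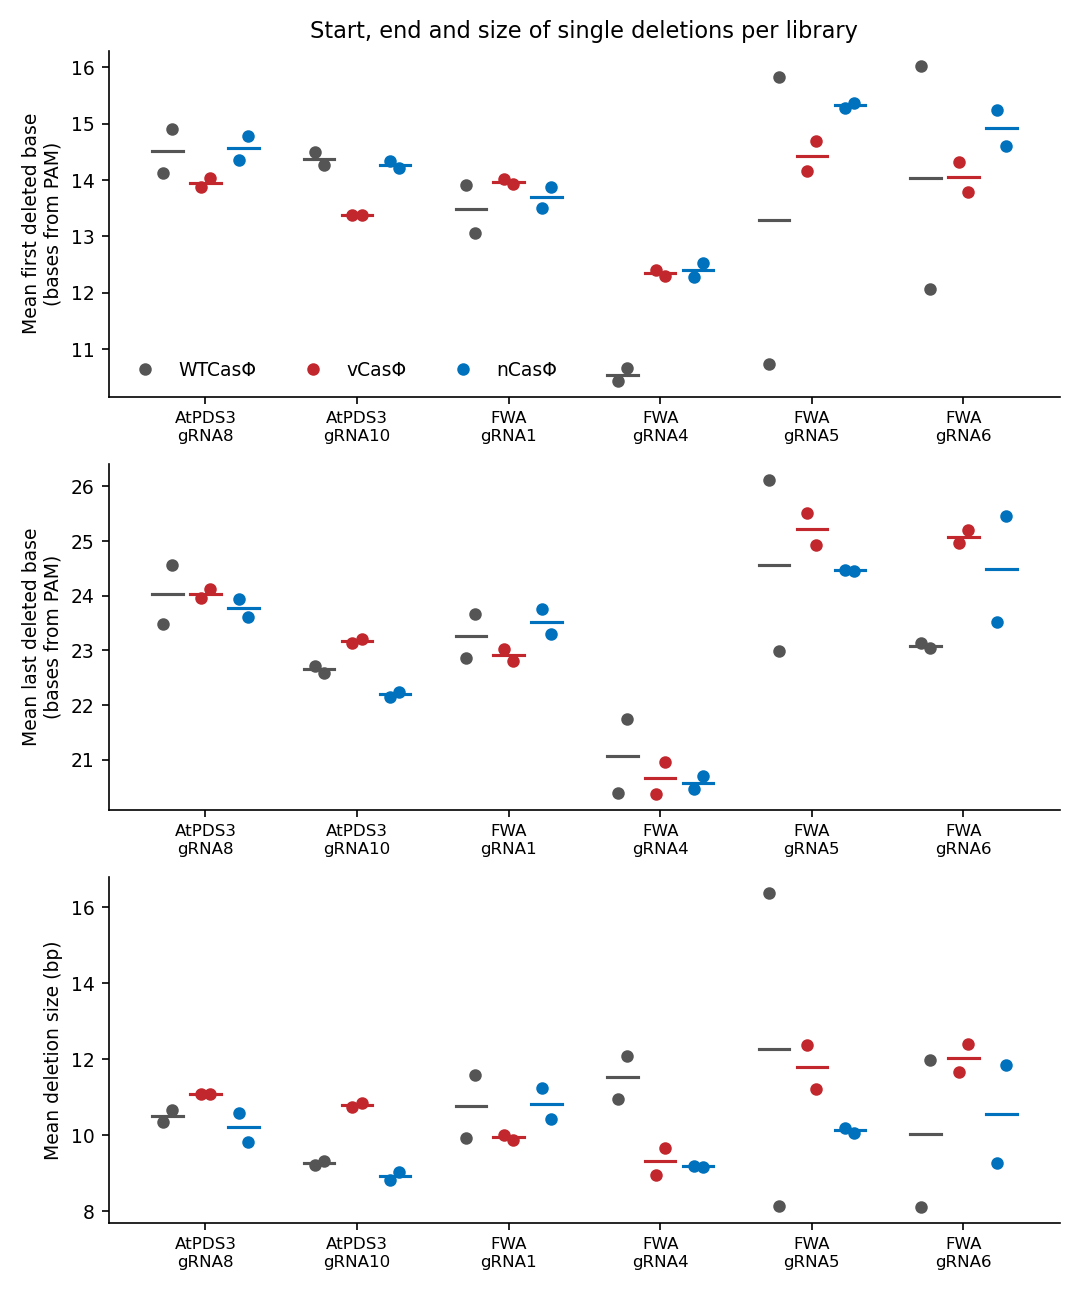
Read-weighted mean deletion start and end (base from the PAM) and mean deletion size (bp) by guide and enzyme. Dots are libraries and lines are means of 2. WTCasΦ libraries of gRNA5 and gRNA6 lie far apart, and vCasΦ starts nearer to the PAM than nCasΦ at every guide but gRNA1.

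Much of the width of these comparisons came from WTCasΦ itself. At gRNA5 the WTCasΦ libraries started deletions at base 10.7 and 15.8 and averaged 16.4 and 8.15 bp. At gRNA6 they started at 16.0 and 12.1 and averaged 8.11 and 12.0 bp. No other pair of libraries of a guide and enzyme was that far apart in its start, and the WTCasΦ libraries held 3710 to 55709 edited reads against 14041 to 498723 for vCasΦ and 20532 to 176609 for nCasΦ. Without the second WTCasΦ library of gRNA5 the shift of the start with nCasΦ was 1.25 bases (adjusted p = 0.0417), and without the first WTCasΦ library of gRNA6 it was 1.15 (adjusted p = 0.0305). That call therefore turned on a single library.

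Between the variants, the start and the size of deletions passed the test. Deletions started 0.51 ± 0.21 bases (SE over 6 guides) nearer to the PAM with vCasΦ than with nCasΦ (exact permutation test, p = 0.00304, with an adjusted p of 0.00913 whether taken over 18 tests or over the 3 pairs of enzymes). The mean was lower at 5 of 6 guides, without overlap at gRNA8, gRNA10, gRNA5 and gRNA6. At gRNA8, for example, starts were 13.9 and 14.0 with vCasΦ and 14.4 and 14.8 with nCasΦ, and at gRNA5 they were 14.2 and 14.7 with vCasΦ and 15.3 and 15.4 with nCasΦ. At gRNA1 the order was reversed, at 14.0 and 13.9 against 13.5 and 13.9, and at gRNA4 the libraries overlapped. With the read-weighted median in place of the mean the difference was -0.0833 (adjusted p = 1.0), a measure that moves only in whole bases within a library.

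Deletions were also 0.85 ± 0.43 bp larger with vCasΦ than with nCasΦ, at 5 of 6 guides (exact permutation test, p = 0.0170, adjusted p = 0.0278 over 18 tests and 0.0511 over the 3 pairs). Ends lay 0.34 ± 0.23 bases farther out (p = 0.102, adjusted p = 0.153). The difference in size was 1.87 bp at gRNA10, 1.67 bp at gRNA5 and 0.87 bp at gRNA8, all without overlap, and -0.88 bp at gRNA1, where nCasΦ deletions were larger without overlap. With deletions over 20 bp left out it was 0.24 bp (adjusted p = 0.193), and the call was also lost without gRNA8, gRNA10, gRNA5 or gRNA6 (0.65 to 0.85 bp, adjusted p from 0.0631 to 0.159). Among single libraries, it was lost without the second nCasΦ library of gRNA1, the first nCasΦ library of gRNA6, the second vCasΦ library of gRNA4 or either vCasΦ library of gRNA6 (0.64 to 0.92 bp, adjusted p from 0.0516 to 0.0815).

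Deletions over 20 bp, longer than the target itself, also differed between the variants. At gRNA10 they made up 5.78 and 7.02% of edited reads with vCasΦ, against 0 and 0.652% with nCasΦ and 0% in both WTCasΦ libraries. At gRNA6 they made up 19.7 and 16.9% with vCasΦ, 4.53 and 12.9% with nCasΦ and 0% in both WTCasΦ libraries. vCasΦ exceeded nCasΦ without overlap at 4 of 6 guides, at gRNA5 with 11.8 and 9.83% against 6.62 and 8.11% and at gRNA8 with 4.82 and 5.92% against 3.79 and 2.06%. At gRNA1 the order was turned, with 2.11 and 1.82% for vCasΦ and 7.90 and 3.34% for nCasΦ. Since a pattern counts only from a minimum number of reads, it needs a higher share in a library with fewer edited reads. At gRNA8 the nCasΦ libraries held 23090 and 20532 edited reads, against 92329 and 86699 for vCasΦ. At gRNA10 they held 114494 and 153956 against 498723 and 433052. At gRNA5 nCasΦ also held fewer, and at gRNA6 the libraries overlapped. What part of the difference in this share came from the minimum was not tested.

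**Figure D3:**
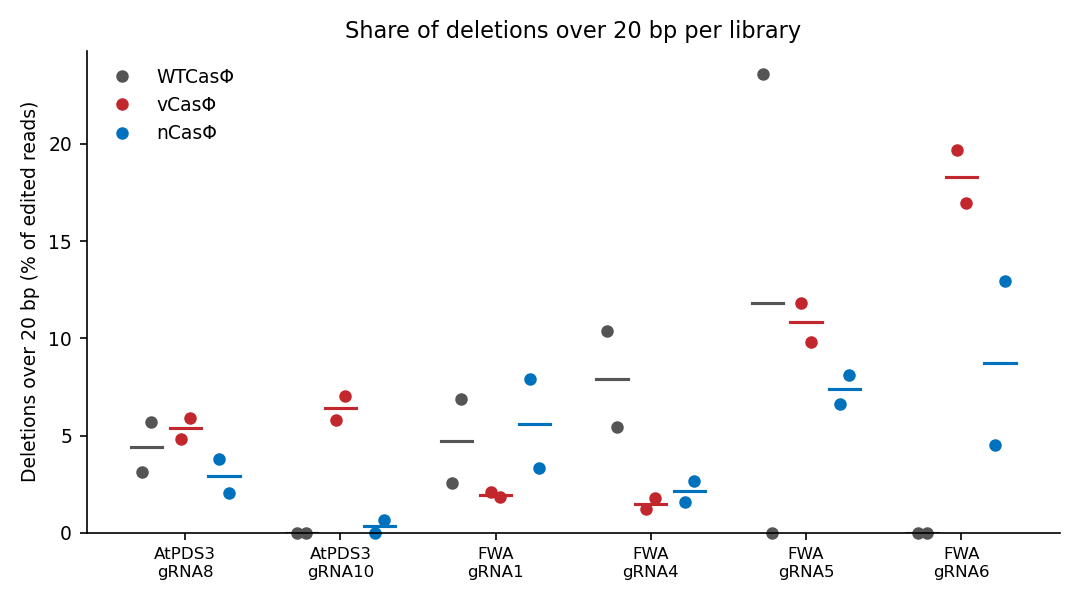
Share of edited reads, in percent, with a deletion over 20 bp, by guide and enzyme. Dots are libraries and lines are means of 2. vCasΦ lies above nCasΦ without overlap at gRNA8, gRNA10, gRNA5 and gRNA6 and below it at gRNA1, and the WTCasΦ libraries of gRNA5 are at 23.6 and 0%.

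WTCasΦ was not uniformly low in this class. At gRNA4 it had 10.4 and 5.44% of edited reads in deletions over 20 bp, more than vCasΦ (1.20 and 1.81%) and nCasΦ (1.58 and 2.67%). At gRNA5 its libraries were at 23.6 and 0%. A large deletion enters this count only when its pattern reaches 100 reads, which in a WTCasΦ library with few edited reads asks for a much higher share than in a vCasΦ library, so a 0% there is a limit of the criterion as well as a measurement. The largest single deletion measured 12 to 45 bp over the WTCasΦ libraries, 24 to 51 bp with vCasΦ and 17 to 46 bp with nCasΦ. Deletions under 8 bp ran the other way for nCasΦ, whose share lay above that of WTCasΦ without overlap at 5 of 6 guides, for example 37.7 and 41.3% against 29.5 and 18.3% at gRNA4. The exception was gRNA1, at 16.3 and 21.2% against 26.5 and 18.4%.

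The share of deletion reads that had lost each base showed the same footprint for the 3 enzymes in finer detail. As the deletions were written, it peaked between base 14 and 16 at gRNA4 and between base 18 and 21 at all other guides, with every enzyme. The side of placement in repeats differed between guides, so these peaks are compared between enzymes and not between guides. The bases lost in at least 50% of deletion reads at gRNA10 were 14 to 22 with all 3 enzymes. The enzymes differed at the flanks, with deletions in repeats placed as the tables wrote them. At gRNA10, base 10 was lost in 0% of WTCasΦ deletion reads, 9.00% of vCasΦ reads and 3.52% of nCasΦ reads. At gRNA4 the same base was lost in 25.7% with WTCasΦ, 12.2% with vCasΦ and 13.5% with nCasΦ. On the far side, base 30 of gRNA6 was lost in 0% of WTCasΦ reads, 18.5% of vCasΦ reads and 11.3% of nCasΦ reads.

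**Figure D4:**
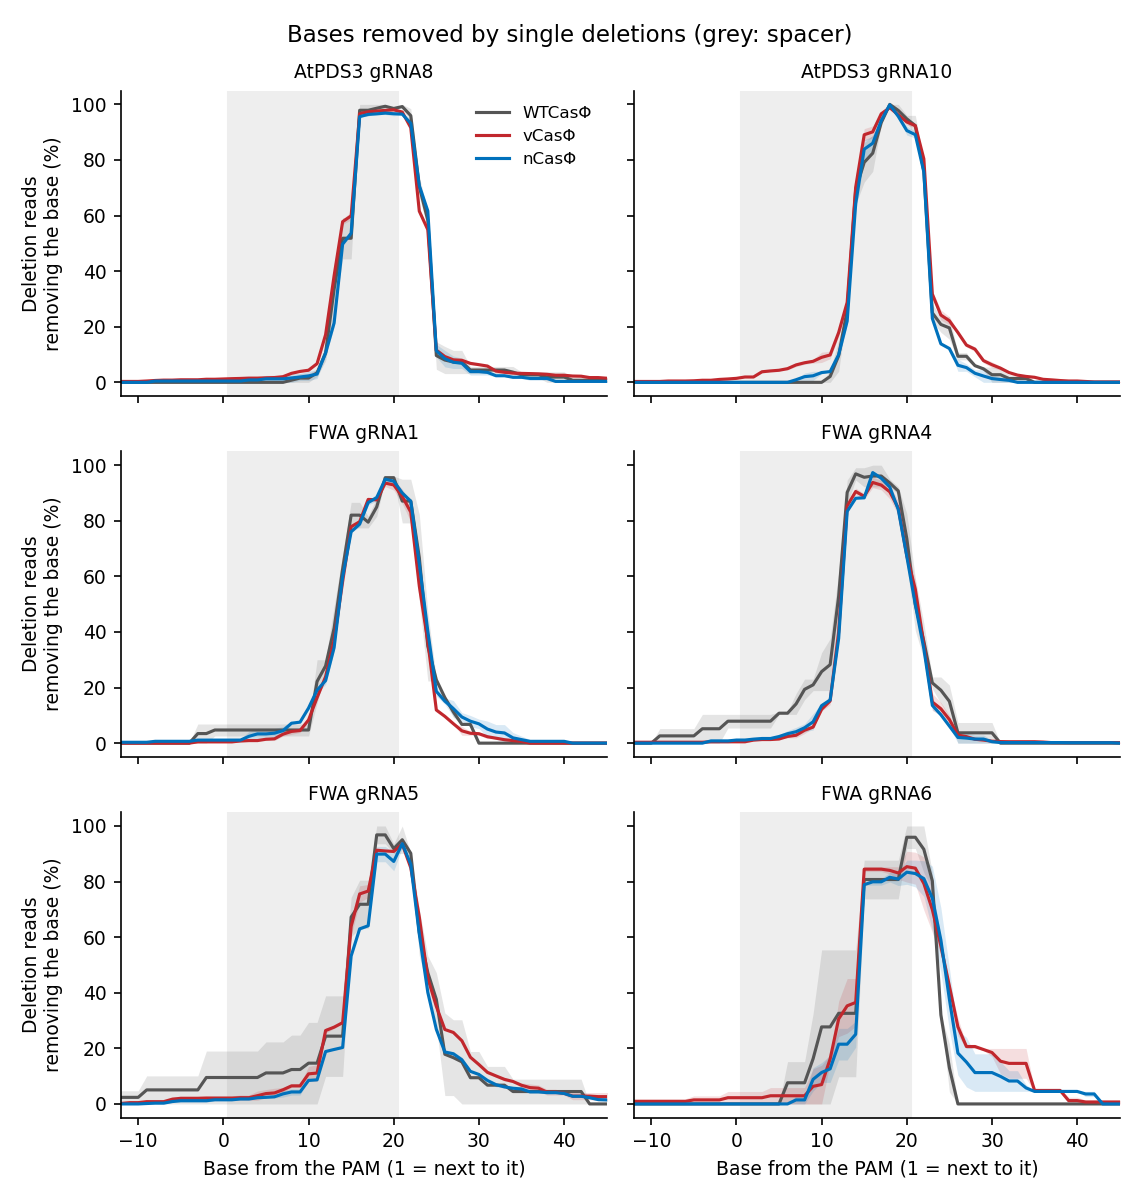
Percent of deletion reads that lost each base, against distance from the PAM, in 1 panel per guide. Lines are means of 2 libraries, bands span both libraries, and grey marks the 20 bases matched by the guide. With deletions placed as the tables wrote them, all enzymes peak near the PAM-distal end of the target, and the bands of WTCasΦ are widest at gRNA5 and gRNA6.

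At gRNA10 the far end of the footprint crosses the exon boundary, since base 22 is the first base beyond the exon. AtPDS3 lies on the other strand, so in the direction of the gene base 22 is the last base of the preceding intron. As the tables wrote them, deletions crossed it in 70.4 and 79.8% of WTCasΦ edited reads, 79.6 and 79.5% of vCasΦ reads and 78.3 and 73.1% of nCasΦ reads. Much of this is a matter of notation, since the 9-bp deletion of that site leaves the same sequence when written farther toward the PAM. With every deletion written as near to the PAM as its sequence allows, 39.7 and 25.5% of WTCasΦ edited reads, 38.3 and 42.0% of vCasΦ reads and 37.1 and 29.3% of nCasΦ reads still crossed into the intron, and the enzymes overlapped. At gRNA8 the last base of the preceding intron is base 26, and that intron was reached in 3.14 to 12.9% of edited reads as written over the 6 libraries. Among the coding-site libraries of both AtPDS3 guides, deletions that were a multiple of 3 bp took 25.6 to 46.5% of edited reads with WTCasΦ, 35.7 to 48.7% with vCasΦ and 36.4 to 48.8% with nCasΦ. At gRNA1, whose base 23 is the annotated first base of FWA, the deletion, written there toward the PAM, reached the gene in 51.3 and 82.3% of WTCasΦ edited reads, 57.6 and 53.4% of vCasΦ reads and 66.1 and 60.7% of nCasΦ reads, so the WTCasΦ libraries spanned both variants. The PAM itself was lost in 0 to 19.0% of WTCasΦ edited reads, 0 to 4.47% with vCasΦ and 0 to 1.72% with nCasΦ. The highest WTCasΦ value came from the gRNA5 library with the largest deletions.

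More patterns passed the criterion with the variants. By the criterion, 6 to 19 patterns passed in a WTCasΦ library (median 14.5), 21 to 102 in a vCasΦ library (median 71.5) and 18 to 78 in an nCasΦ library (median 39.5), but these counts rise with the number of edited reads. Patterns were therefore compared at equal depth: every pattern that passed in at least 1 of the 6 edited libraries of a guide was listed, and the number of listed patterns expected in a random draw was computed at 1 depth per guide, the smallest number of listed reads in any of its libraries (3850 to 30950 reads). At gRNA8, 35.0 and 40.8 patterns were then expected with WTCasΦ, 96.7 and 90.5 with vCasΦ and 51.8 and 42.8 with nCasΦ. At gRNA10 the numbers were 49.0 and 50.9, 88.1 and 92.7, and 54.3 and 63.8. At gRNA1, nCasΦ reached the range of vCasΦ, with 68.1 and 80.9 against 62.5 and 79.2, both above WTCasΦ at 47.0 and 39.4.

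**Figure D5:**
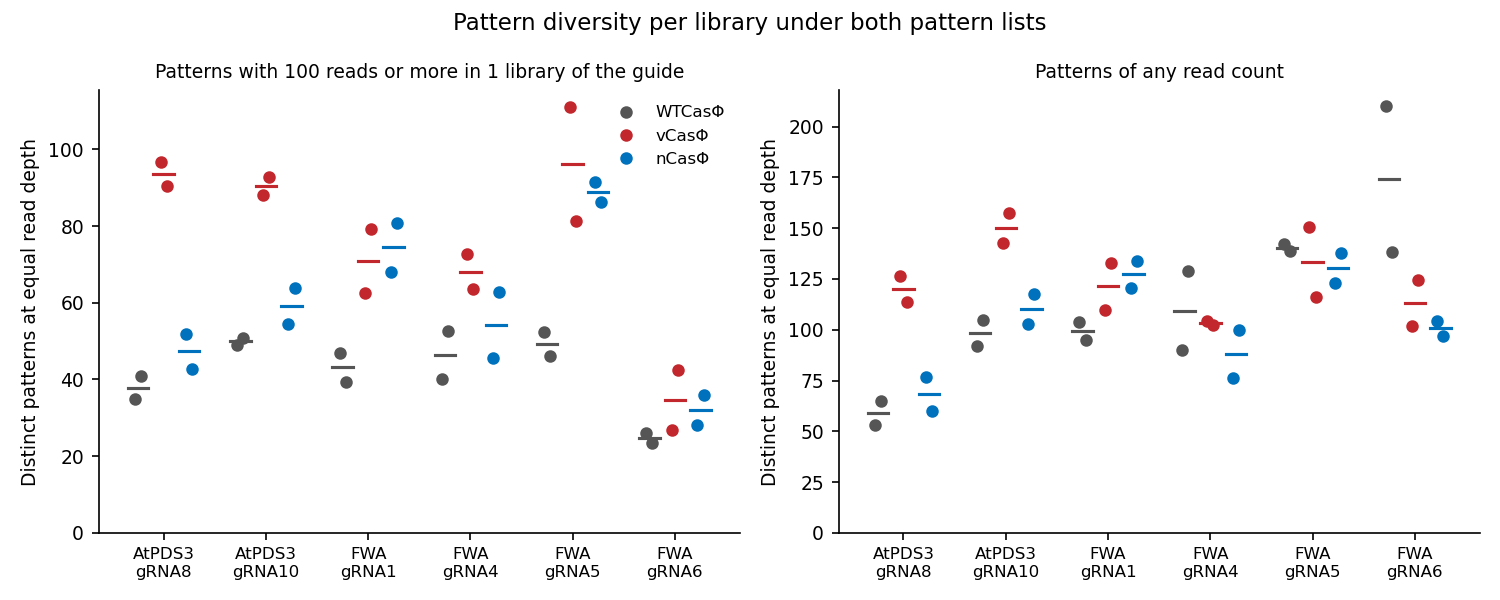
Number of deletion or insertion patterns expected at equal depth, by guide and enzyme, for listed patterns (left) and for patterns of any read count (right). Dots are libraries and lines are means of 2. On the left, vCasΦ lies above WTCasΦ without overlap at all 6 guides and nCasΦ at 5 of 6, the exception being gRNA4. On the right, vCasΦ does so only at gRNA8, gRNA10 and gRNA1, and nCasΦ only at gRNA1. There WTCasΦ lies above both variants at gRNA6 and above nCasΦ at gRNA5.

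The list came from these same libraries and was filled mostly by the variants, so the direction of the differences below was in part set by it. At equal depth vCasΦ exceeded WTCasΦ by 33.8 ± 6.95 patterns (SE over 6 guides), at 6 of 6 guides (exact permutation test, p = 4.29e-05, the smallest possible, adjusted p = 0.000257). nCasΦ exceeded WTCasΦ by 17.5 ± 5.82 patterns, also at 6 of 6 guides (exact permutation test, p = 0.000472, adjusted p = 0.00212). vCasΦ exceeded nCasΦ by 16.3 ± 7.74 patterns, at 5 of 6 guides (exact permutation test, p = 0.0110, adjusted p = 0.0198), a difference that was 10.3 without gRNA8 (adjusted p = 0.108) and 13.3 without gRNA10 (adjusted p = 0.108). The effective number of patterns (the exponential of the Shannon entropy, the number of equally frequent patterns that would be as diverse) was 5.65 to 19.3 over the WTCasΦ libraries (median 11.6), 16.1 to 44.6 with vCasΦ (median 26.3) and 13.9 to 46.8 with nCasΦ (median 20.9). On this same list it lay above WTCasΦ without overlap at all 6 guides for both variants.

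These counts depend on which patterns are listed. The list of a guide is filled mostly by the libraries with most edited reads, and of the 732 listed patterns 128 passed in a WTCasΦ library, 591 in a vCasΦ library and 393 in an nCasΦ library, so the list itself favours the variants. The count was therefore repeated, after these values were seen, with lists from other libraries, in which the same guides were delivered as ribonucleoprotein (RNP). With the 1271 patterns that passed in any RNP library, vCasΦ exceeded WTCasΦ by 19.7 ± 5.46 patterns (exact permutation test, p = 0.000214, adjusted p = 0.00129) and nCasΦ by 14.8 ± 6.30 (p = 0.00167, adjusted p = 0.00752), each at 6 of 6 guides. With the 493 that passed in a WTCasΦ RNP library, the excess was 12.1 ± 3.77 for vCasΦ (exact permutation test, p = 0.000171, adjusted p = 0.00103) and 9.37 ± 3.78 for nCasΦ (p = 0.00103, adjusted p = 0.00463), again at 6 of 6 guides. The difference between the variants was 4.82 and 2.70 patterns with these lists and did not pass (adjusted p = 0.198 and 0.188). When patterns of any read count were listed, vCasΦ exceeded WTCasΦ by 10.0 patterns (adjusted p = 0.505) and nCasΦ lay below it by a difference of -9.30 (adjusted p = 0.505). Patterns under 100 reads made up a median of 2.93% of indel reads of at least 3 bp in WTCasΦ libraries (0.815 to 14.4%), 1.03% with vCasΦ (0.317 to 3.89%) and 1.21% with nCasΦ (0.561 to 4.84%). The controls also held 26 to 134 such rare patterns each. At gRNA6, where WTCasΦ edited least, this list gave 210 and 138 patterns with WTCasΦ, 102 and 125 with vCasΦ and 105 and 97.2 with nCasΦ. Editing efficiency moved with diversity between the enzymes. Among the 18 pairs of libraries of the same guide and enzyme, the more efficient library had more patterns at equal depth in 11. Equal reads are not equal numbers of edited cells, and the part of efficiency in the difference was not tested.

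Of the 732 patterns, 653 were single deletions, 2 were insertions and 77 combined more than 1 change. Combined patterns passed in 1 of 12 WTCasΦ libraries, 12 of 12 vCasΦ libraries (0.294 to 2.59% of edited reads) and 9 of 12 nCasΦ libraries. Of the 128 patterns that passed with WTCasΦ, 104 also passed with vCasΦ, 95 with nCasΦ and 92 with both, and 21 passed with WTCasΦ alone. Of all 732 listed patterns, 591 passed with vCasΦ, 393 with nCasΦ and 273 with both. A pattern that did not pass with WTCasΦ is listed only because it passed with a variant. The shares of the whole list are therefore raised by how it was made, and nothing is read from setting the 104, 95 or 92 beside them. The patterns that passed with WTCasΦ took 81.3% of vCasΦ edited reads at gRNA8, 74.3% at gRNA10 and 76.8% at gRNA4. They took 47.2% at gRNA1, 50.5% at gRNA5 and 34.9% at gRNA6. For nCasΦ the same shares were 80.5, 86.2 and 74.5% at the former sites and 46.8, 55.0 and 53.1% at the latter. A further 306 patterns passed with vCasΦ alone and 117 with nCasΦ alone, numbers that again follow the depth of edited reads.

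Whether the mix of patterns differed was measured as a distance between the pattern shares of library pairs, 0 where shares are the same and 1 where no pattern is shared. The mean distance between libraries of 2 enzymes exceeded the mean of the distances within the 2 enzymes by 0.0894 ± 0.0261 for vCasΦ and WTCasΦ (one-sided exact permutation test, p = 0.00274, adjusted p = 0.00913), 0.0591 ± 0.0245 for nCasΦ and WTCasΦ (p = 0.0096, adjusted p = 0.0192) and 0.0354 ± 0.0152 for vCasΦ and nCasΦ (p = 0.00412, adjusted p = 0.0106), each at 5 of 6 guides. With any single library left out they ranged from 0.0490 to 0.135, 0.0223 to 0.0982 and 0.0222 to 0.0630, and each call was lost without some single libraries. That of vCasΦ and WTCasΦ was lost without either vCasΦ library of gRNA10, gRNA4 or gRNA5. That of nCasΦ and WTCasΦ was lost without either nCasΦ library of gRNA10, gRNA4 or gRNA5 or the second of gRNA6. That of the variants was lost without either nCasΦ library of gRNA6, the first vCasΦ library of gRNA1 or either vCasΦ library of gRNA4. Over all these cases the adjusted p was 0.0875 to 0.325. These differences were small beside the spread of WTCasΦ. Its 2 libraries of a guide lay a mean of 0.593 apart (0.273 to 0.748), which was more than the mean between vCasΦ and WTCasΦ (0.551) and between nCasΦ and WTCasΦ (0.527). vCasΦ libraries lay 0.329 apart and nCasΦ libraries 0.342. The mean distance between the variants was 0.371. The excess can also lie above 0 when 2 enzymes differ only in the spread of their own libraries. In the comparisons with WTCasΦ, it cannot separate that from a different mix of patterns.

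Single patterns showed the same spread. The 9-bp deletion of gRNA8 drawn above was the most frequent with all 3 enzymes, at 26.1 and 31.9% of listed reads with WTCasΦ, 20.0 and 23.4% with vCasΦ and 23.7 and 31.5% with nCasΦ. The 9-bp deletion of gRNA10 was at 9.00 and 30.3% with WTCasΦ, 28.7 and 26.4% with vCasΦ and 22.8 and 29.0% with nCasΦ, so the WTCasΦ libraries differed from each other more than the enzymes did. The 5-bp deletion of gRNA5 was at 12.0 and 35.9% with WTCasΦ, 9.54 and 13.2% with vCasΦ and 20.8 and 18.7% with nCasΦ. The 7-bp deletion of gRNA4 was at 21.5 and 6.58%, 17.8 and 14.5%, and 12.3 and 18.0% with the 3 enzymes.

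Over all 732 patterns the 2 libraries of vCasΦ and the 2 of WTCasΦ did not overlap in 31.7%, with vCasΦ higher in 28.4% and lower in 3.28%. nCasΦ and WTCasΦ did not overlap in 23.5%, with nCasΦ higher in 20.8% and lower in 2.73%. vCasΦ and nCasΦ did not overlap in 27.6%, with vCasΦ higher in 17.2% and lower in 10.4%. Since the list was filled mostly by the variants, patterns low with WTCasΦ had to be common on it, and nothing is read from these counts. The pattern with the largest difference from WTCasΦ at each guide was chosen by its size and is given as a description. Among the patterns named here, several were close to absent with WTCasΦ and frequent with both variants, and differ from a neighbour on the same site by few bases at 1 edge. The first 3 sequences below show these and the last a pattern that was more frequent with WTCasΦ, again with deleted bases in capitals.
gRNA4, 10-bp deletion: ttatggttctatactAATATCAAAGagtta
gRNA5, 6-bp deletion: ttgatattagtatagaaccaTAACAAaaga
gRNA6, 11-bp deletion: ttagtatagaaccataaCAAAAGAAAAAaa
gRNA10, 10-bp deletion: ttgcagttgacaatcCAGCCAATCCtgcaa
The 10-bp deletion of gRNA4 was at 0.06 and 0.10% of listed reads with WTCasΦ, 4.65 and 4.32% with vCasΦ and 6.24 and 5.93% with nCasΦ, and it starts at the same base as the 7-bp deletion above. The 6-bp deletion of gRNA5 was at 0.13 and 0.10% with WTCasΦ, 4.11 and 6.68% with vCasΦ and 7.19 and 5.86% with nCasΦ. It adds 1 base to the 5-bp deletion of that site, which WTCasΦ made in both libraries.

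At gRNA6 the 9-bp deletion drawn above was at 34.4 and 20.5% with WTCasΦ, 1.12 and 12.0% with vCasΦ and 10.5 and 12.5% with nCasΦ. The 11-bp deletion, 2 bases longer into the same run of adenine, was at 0.26 and 0.19% with WTCasΦ, 8.27 and 12.7% with vCasΦ and 9.69 and 12.0% with nCasΦ. In the other direction, the 10-bp deletion of gRNA10, which removes 1 base more on the PAM side than the 9-bp deletion, was at 10.7 and 17.8% with WTCasΦ, 7.47 and 4.84% with vCasΦ and 8.16 and 7.02% with nCasΦ. The 10-bp deletion of gRNA1 was at 18.5 and 18.7% with WTCasΦ, 5.20 and 8.96% with vCasΦ and 14.6 and 10.2% with nCasΦ. A 19-bp deletion of bases 11 to 29 at gRNA1 was at 6.65 and 6.72% with WTCasΦ and at no more than 0.00339% of listed reads in the 4 variant libraries. Neither kind of pattern is tested here, since each was picked or shown for its difference. The 11-bp deletion of gRNA6 was named for its frequency and is shown for its difference.

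In the RNP libraries the same 6 guides and 3 enzymes were delivered as preassembled complexes, with 4 libraries for each of the 18 combinations. Delivery and experiment cannot be told apart there. The order of the variants in efficiency was turned: with RNP, vCasΦ edited less than nCasΦ at 5 of 6 guides, by a mean difference of -2.25 percentage points of reads (from -4.37 to 0.94), which was not tested. With RNP, vCasΦ moved the start of deletions by -0.13 bases from WTCasΦ and nCasΦ by 0.07, against 0.31 and 0.82 by plasmid. Ends moved by -0.02 and 0.07 bases with RNP, and sizes by 0.12 bp for vCasΦ and by less than 0.01 bp for nCasΦ. The shifts described above at gRNA4 were not seen with RNP. The start there differed from WTCasΦ by -0.16 bases for vCasΦ and -0.06 for nCasΦ, against 1.80 and 1.85 by plasmid. The size there differed by 0.09 and 0.24 bp, against -2.21 and -2.34 bp. At gRNA10 with RNP, vCasΦ differed by 0.03 bases in start and 0.39 bp in size, against -0.999 bases and 1.52 bp. None of the 6 differences between plasmid and RNP passed an exact sign-flip test over the 6 guides (p from 0.125 to 1, adjusted p from 0.5625 to 1). With 6 guides this test has few arrangements. A lone difference could not pass after adjustment even at the smallest p the test can give. The test therefore cannot decide whether plasmid and RNP differ, and no likeness is read from it. vCasΦ minus nCasΦ with RNP was -0.20 bases in start (from -0.64 to 0.05, below 0 at 4 of 6 guides) and 0.11 bp in size, against -0.51 bases and 0.85 bp by plasmid, a comparison made without a test.

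Pattern diversity with RNP did not follow the order seen with plasmids at every guide. At gRNA10, where WTCasΦ as RNP edited 0.633 to 1.56% of reads, its effective number was 15.6 to 21.4, a range that overlaps that of vCasΦ at 14.1 to 18.2 and that of nCasΦ at 18.8 to 24.4. At gRNA5 it was 21.3 to 27.6 with WTCasΦ, 24.2 to 33.8 with vCasΦ and 24.1 to 28.6 with nCasΦ, 3 ranges that overlap, while WTCasΦ by plasmid was at 19.3 and 5.65. At gRNA1 both variants stayed above WTCasΦ without overlap, at 38.5 to 53.3 and 37.4 to 51.7 against 20.5 to 29.1.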

How the data were processed

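Amplicons of the target regions were sequenced after 2 rounds of PCR. Per the submitters' processing notes and the study's methods, reads were trimmed with Trim Galore, aligned with BWA 0.7.17 to the target region (genome build TAIR10) and tabulated with CrispRVariants. The deposited files hold the authors' read counts per indel pattern, without normalization. The study's criterion for edited reads was applied (an indel of at least 3 bp, at least 100 reads of the pattern in the library), leaving out patterns within runs of at least 6 adenines for FWA gRNA5 and gRNA6. Coordinates were found by matching the bases around the cut, as read from the labels of the control libraries, to RefSeq TAIR10.1 in and near each gene.

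Start, end and size are read-weighted means over single deletions. Enzymes were compared by exact permutation of enzyme labels within guides (46656 arrangements, two-sided), or for the profile distance by 729 arrangements, one-sided, whose smallest p is 0.00137. Benjamini-Hochberg adjustment ran over 18 tests, and a result counted as a difference at an adjusted p under 0.05. Named patterns were, per guide, the 3 most frequent on average and the largest difference of each variant from WTCasΦ. No 2 files were identical, and replicate pairs differed by more than sampling noise (chi-square per degree of freedom 30.8 to 269). The tests were checked on simulated data. Python 3.11.15, numpy 2.4.6, scipy 1.17.1 and pandas 2.3.3 were used. The libraries and lists were chosen with earlier results of these data known. Alternatives covered the pattern list, read and indel minimum, placement in repeats, summary, weighting, replicate block and leaving out guides and libraries.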

Additional observations from a re-analysis of the deposited data

Results flagged for a closer look

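The sign of several differences between enzymes turned with the guide, each time without overlap of the 2 libraries of either enzyme. Lack of overlap between 2 libraries and 2 is common under random labels, so it does not establish these turns. The difference between guides was not tested. For vCasΦ minus WTCasΦ, the deletion start was 1.80 bases farther from the PAM at gRNA4 and differed by -0.999 at gRNA10, and the deletion size differed by 1.52 bp at gRNA10 and -2.21 bp at gRNA4. For nCasΦ minus WTCasΦ, the deletion end differed by 1.41 bases at gRNA6 and -0.45 at gRNA10. For vCasΦ minus nCasΦ, the start differed by 0.27 bases at gRNA1 and -0.90 at gRNA5, the end by 0.98 at gRNA10 and -0.61 at gRNA1, and the size by 1.87 bp at gRNA10 and -0.88 bp at gRNA1.

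Reads that the deposited tables list as other, with no resolved indel, were outside every comparison above. Their mean share over the 4 variant libraries of a guide was above its control at all 6 guides: 0.0395% against 0.000246% at gRNA8, 0.175% against 0.000291% at gRNA10, 0.138% against 0.000377% at gRNA1, 0.176% against 0.00172% at gRNA4, 0.378% against 0.000653% at gRNA5 and 0.0603% against 0.00068% at gRNA6. In WTCasΦ libraries the share was 0.000254 to 0.0187%. The content of these reads was not analysed here.

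Among the RNP libraries, the mean deletion end of a WTCasΦ library of FWA gRNA4 was 20.0, away from the other 3, the nearest at 20.4. This was the only such value among 54 groups of 4, of which chance flags about 1 in 20.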

How the results depend on the processing

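Values are mean differences over guides, with adjusted p from the exact permutation tests. The higher efficiency of both variants kept its call under every alternative except keeping a single replicate, where no result can pass after adjustment. The same held for their larger number of patterns at equal depth, apart from the pattern lists and measures given here. With patterns of any read count the excess was 10.0 for vCasΦ and -9.30 for nCasΦ over WTCasΦ. By the share of the most frequent pattern, sign turned, it was 4.34 percentage points for nCasΦ over WTCasΦ (adjusted p = 0.164) and 2.43 for vCasΦ over nCasΦ (0.162). With patterns listed from RNP libraries, lists chosen after seeing the data, the difference between the variants was 4.82 for any enzyme (0.198) and 2.70 for WTCasΦ (0.188).

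With enzyme labels exchanged only within equal replicate numbers (replicate block), the adjusted p was 0.0562 for size between the variants (0.85 bp), 0.0516 for their patterns (16.3), 0.0562 for the distance of nCasΦ from WTCasΦ (0.0591) and 0.0767 for that between the variants (0.0354), and no other call changed. Nothing in the sources ties equal numbers together. Of 15 correlations of same-numbered libraries 13 were over 0.1 (-0.172 to 0.976).

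Between the variants, leaving out gRNA8 gave 0.54 for log2 efficiency (0.103), 0.85 for size (0.0864) and 10.3 for patterns (0.108). Leaving out gRNA10 gave 0.68 (0.0962), 0.65 (0.159) and 13.3 (0.108). Size was 0.69 without gRNA5 (0.120), 0.73 without gRNA6 (0.0631), 0.74 with the overlapping FWA sites as 1 unit (0.0875), 0.58 for the median (0.0938) and 0.24 without deletions over 20 bp (0.193). The start was -0.0833 for the median, and the end rose to 0.53 without gRNA1 (0.0282). The distance of nCasΦ from WTCasΦ was 0.0553 without gRNA8 (0.0648), 0.0582 without gRNA5 (0.0519), 0.0506 without gRNA6 (0.0519) and 0.0596 with the FWA sites as 1 unit (0.0543).

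Differences near 0 changed sign. Size for vCasΦ minus WTCasΦ was -0.19 without gRNA10, -0.28 without gRNA6, -0.42 for the median, -0.0241 without the most frequent pattern and -0.27 without deletions over 20 bp. With the FWA sites as 1 unit the start for vCasΦ minus WTCasΦ was -0.0246 and the end for nCasΦ minus WTCasΦ -0.0384, which was -0.20 without gRNA6. Plasmid minus RNP in the end with nCasΦ was 0.00908 for the joint pattern list, 0.16 without gRNA10, 0.13 without gRNA4 and 0.00806 without gRNA5. In the size with vCasΦ it was 0.0463 for the joint list, 0.18 without gRNA1, 0.44 without gRNA4 and 0.16 without gRNA5.

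Leaving out a replicate number or a single library, log2 efficiency ranged from 3.69 to 4.00 (vCasΦ over WTCasΦ), 2.94 to 3.13 (nCasΦ over WTCasΦ) and 0.66 to 0.96 (vCasΦ over nCasΦ, call lost without the first nCasΦ or the second vCasΦ library of gRNA6). In the same order, patterns ranged from 31.3 to 36.2, 15.0 to 19.9 and 12.9 to 19.7, and the start from -0.11 to 0.74, 0.40 to 1.25 and -0.56 to -0.46. The end ranged from -0.20 to 0.33 for nCasΦ minus WTCasΦ and from 0.18 to 0.50 between the variants, the highest without the second nCasΦ library of gRNA6 (0.0418). Size ranged from -0.59 to 0.78 for vCasΦ minus WTCasΦ and from 0.64 to 1.07 between the variants. The latter call was lost without the second nCasΦ library of gRNA1, the first of gRNA6, the second vCasΦ library of gRNA4 or either of gRNA6. Distances ranged from 0.0490 to 0.135, 0.0223 to 0.0982 and 0.0222 to 0.0630 and could not be computed from a single replicate. Plasmid minus RNP ranged from -0.13 to 0.13 for the end with nCasΦ and from -0.14 to 0.10 for the size with vCasΦ.

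The 3710 to 55709 edited reads of WTCasΦ libraries limit every comparison with it, since a pattern must reach 100 reads to count.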
